A study of Mus musculus with 6 samples.

Results

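The transcriptome of the mouse cochlea 24 h after noise and dexamethasone was set against that of the unexposed cochlea, to see what still differed from baseline after treatment. The comparison took the 2 arrays that carry these labels, of 6 arrays in the series, and each difference is the level on the dexamethasone 24 h array minus the level on the baseline array. Of 37288 genes with a probe, 23398 gave a signal well above background on both arrays, through 35890 of 56589 probes, and these are called measured genes. The mice were female C57BL/6 animals of 6 weeks. The treated group had 2 h of intense noise, then an intraperitoneal injection of dexamethasone sodium triphosphate, as the labels spell it, at 10 mg/kg, and its cochleae were taken 24 h later. The baseline group had neither noise nor dexamethasone, so the pair differs in noise, drug, injection and time together, and the share of each cannot be told apart. For orientation, the array of noise-exposed mice given saline and taken at 24 h, and that of mice with noise only, whose sampling time the labels do not give, are quoted side by side. The labels count 6 mice per group, each group has 1 array, and whether the RNA of the 6 mice was pooled is not stated.

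The cochlea is the hearing organ of the inner ear. It holds sensory hair cells, the neurons of the spiral ganglion, and a lateral wall whose stria vascularis and spiral ligament keep the potassium of its fluid, all inside a bony capsule with marrow. Dexamethasone is a synthetic glucocorticoid that binds the glucocorticoid receptor, which switches on genes such as Tsc22d3 and Fkbp5 and restrains the transcription of many cytokine and interferon-stimulated genes. Glucocorticoids also reset tissue clocks, shift leukocytes between marrow, blood and tissue, and act on fat and muscle metabolism.

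The 4 arrays used here lay on 1 slide. Levels are log2 signals with each array's 75th percentile set to 0, which stood at a signal of 643 at baseline and 618 with dexamethasone at 24 h. A gene was counted as higher or lower from 2-fold. By that rule 306 genes (1.31%) were higher and 471 (2.01%) were lower with dexamethasone at 24 h than at baseline, 777 (3.32%) in all. Outside these counts, 450 genes were well above background only with dexamethasone and 1499 only at baseline. For 309 and 183 of them the difference was at least 2-fold as a lower bound. Of the measured genes 89.4% lay within 1.5-fold of baseline, and the median difference was 0.02 on the log2 scale. Saline at 24 h gave 396 higher (1.73%) and 393 lower (1.71%) genes against the same baseline array, and noise only gave 635 (2.63%) and 767 (3.18%). With 1 array per group there is no replicate error and no test. The ranges after folds are 95% intervals from the scanner software's spot error, typically a factor of 1.32 on either side, and leave out the spread between animals and arrays. Of the measured genes 7.72% were higher and 8.94% lower beyond that interval, which is called beyond spot error. Most of both counts came from dim spots, since 263 of the 306 higher and 332 of the 471 lower genes lay below the median signal of measured genes. Scaling could use the spiked-in control RNA in place of the 75th percentile. Each log2 difference of dexamethasone at 24 h from baseline would then be lower by 0.39, and the split would become 163 higher and 1337 lower. Relative to the 75th percentile, that RNA stood at -0.34 at baseline, -0.27 with noise only, -0.07 with saline at 24 h and 0.05 with dexamethasone. Differences of saline and noise only from baseline would thus fall by less, and they are given without spike-in scaling throughout. All differences are therefore relative to the bulk of genes. A positive dexamethasone list median below 0.39 turns negative under spike-in scaling.

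**Figure D1:**
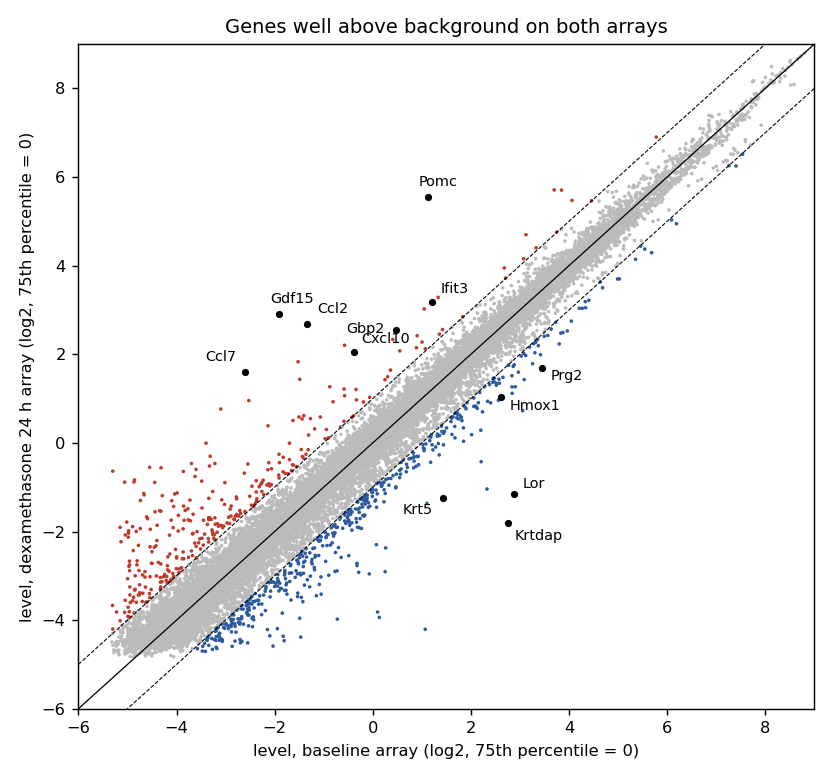
Level of each measured gene on the baseline array (x axis) and the dexamethasone 24 h array (y axis), both as log2 signal with the 75th percentile at 0; the solid line marks equality, dashed lines 2-fold, with red points past 2-fold above baseline and blue points past it below. Of the labelled genes, Gdf15, Ccl2, Ccl7 and Pomc stand far above the line and Krtdap and Lor far below it, and most red points lie at low levels.

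Interferon-stimulated genes were still above baseline, though less far above it than with saline at 24 h. Of 45 such genes in 3 lists (antiviral effectors, sensors and transcription factors, and interferon-inducible GTPases), 41 lay above baseline and 11 were at least 2-fold higher, against 1.31% of measured genes. The median difference was 0.66, and the same genes had a median of 1.22 with saline at 24 h. In 42 of the 45 the dexamethasone level lay below the saline level. With spike-in scaling the median would be 0.27, with 33 of 45 above baseline.

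Ifit1, whose protein binds foreign RNA that lacks the host's cap methylation, had a level of -0.57 at baseline, 2.14 with noise only, 2.24 with saline at 24 h and 1.06 with dexamethasone at 24 h. Its neighbour Ifit3, a partner of the Ifit1 protein, stood at 1.20, 4.50, 4.55 and 3.17 on the same arrays. Both noise arrays without dexamethasone were thus the highest and baseline the lowest, with dexamethasone at 24 h between them. Against baseline the dexamethasone levels were 3.11-fold (2.36 to 4.11) higher for Ifit1 and 3.91-fold (2.96 to 5.16) higher for Ifit3. Ifit3b, a near-identical copy of Ifit3 whose RNA may bind the same probe, was 4.42-fold (3.34 to 5.83) higher. Mx2, a dynamin-like antiviral GTPase, had levels of -1.44 at baseline and 0.54 with dexamethasone, a 3.94-fold (2.98 to 5.21) excess, beside 6.97-fold with saline at 24 h. Oasl2, of the oligoadenylate synthetase family, was 2.14-fold (1.62 to 2.82) higher.

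Among the 23 antiviral effectors the median difference was 0.66. Past 2-fold above baseline were 6 and past it below was 1, against 1.31% and 2.01% of measured genes. The 1 below was Oas3, named here after its value was seen, at -2.47 on the baseline array and -3.47 with dexamethasone. It was 2.01-fold (1.42 to 2.84) lower, and saline at 24 h differed from baseline by 0.02. None of the 12 sensors and factors was 2-fold away, against 3.32% of measured genes. Their median was 0.45, or 0.06 with spike-in scaling. Stat2 and Irf7, factors that carry the interferon signal to the nucleus and amplify it, differed by 0.76 and 0.68. Irf8, a factor of the myeloid lineage, differed the other way, by -0.71.

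The 10 interferon-inducible GTPases, which attack the vacuoles of intracellular microbes, had the highest median of the 3 lists at 1.12. Of the 10, 5 were at least 2-fold higher, against 1.31% of measured genes. Gbp2 had levels of 0.48 at baseline, 2.02 with noise only, 2.12 with saline at 24 h and 2.55 with dexamethasone at 24 h, so here the dexamethasone array was the highest of the 4. Its excess over baseline was 4.19-fold (3.18 to 5.53). Iigp1, by contrast, stood at 0.55, 2.84, 2.89 and 2.08, and its excess was 2.88-fold (2.18 to 3.80). Gbp6 was 3.15-fold and Gbp3 2.43-fold higher than baseline.

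Interferon acts on many of its target genes through the interferon-stimulated response element, searched here as GAAA and GAAA with 2 bases of any kind between them, on both strands, in the 250 bases before each RefSeq gene start of GRCm38.p6. Of the 45 genes 31 had a promoter entry and 17 of these held the letters, 44.7% of 38 entries against 2.98% of all 32851 entries. All 7 GTPases with an entry held them. The promoters of 4 genes are shown as examples. Each gene is at least 2-fold higher than baseline and holds the element, as do others not shown, such as Gbp3. Oas3, which was at least 2-fold lower, holds it too. Cxcl10 is from the chemokine list and lies outside the shares above. The element is in capitals, and each sequence runs in the gene's direction and ends at the base before the start. Ifit1 lies at chr19:34640639-34640888 (+), Ifit3 at chr19:34583279-34583528 (+), Gbp2 at chr3:142620413-142620662 (+) and Cxcl10 at chr5:92348890-92349139 (-).
Ifit1: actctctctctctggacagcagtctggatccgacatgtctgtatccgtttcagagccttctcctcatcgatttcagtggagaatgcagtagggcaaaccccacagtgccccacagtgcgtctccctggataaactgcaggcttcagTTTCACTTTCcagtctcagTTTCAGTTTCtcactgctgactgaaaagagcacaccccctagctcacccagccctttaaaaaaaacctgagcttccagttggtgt
Ifit3: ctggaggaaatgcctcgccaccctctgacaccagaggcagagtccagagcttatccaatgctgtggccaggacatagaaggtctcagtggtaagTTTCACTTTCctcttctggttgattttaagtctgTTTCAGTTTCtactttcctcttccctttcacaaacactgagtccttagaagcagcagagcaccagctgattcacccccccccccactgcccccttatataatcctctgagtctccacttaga
Gbp2: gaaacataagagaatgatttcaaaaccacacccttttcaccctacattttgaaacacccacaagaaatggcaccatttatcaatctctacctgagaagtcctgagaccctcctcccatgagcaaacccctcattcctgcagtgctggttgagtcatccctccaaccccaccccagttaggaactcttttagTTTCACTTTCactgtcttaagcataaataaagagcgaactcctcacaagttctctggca
Cxcl10: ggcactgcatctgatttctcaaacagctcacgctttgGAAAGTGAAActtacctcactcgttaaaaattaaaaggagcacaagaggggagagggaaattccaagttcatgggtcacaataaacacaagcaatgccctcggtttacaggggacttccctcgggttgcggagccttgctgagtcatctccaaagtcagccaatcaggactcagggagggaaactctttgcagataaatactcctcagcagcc
Ifit1 and Ifit3 held 2 copies each and Gbp2 and Cxcl10 held 1, the nearest to a start being that of Gbp2, from position -59. The search took every list gene with an entry whatever its difference, so the shares describe the list and not this pair of arrays. A match of letters is a description and not a bound site.

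Chemokines that recruit monocytes stood farther above baseline. Ccl2, the main ligand of the monocyte receptor CCR2, had levels of -1.35 at baseline, 1.81 with noise only, 1.12 with saline at 24 h and 2.69 with dexamethasone at 24 h. Ccl7, a second CCR2 ligand, stood at -2.60, 0.39, 0.21 and 1.60. For both the dexamethasone array was the highest of these 4, and the excess over baseline was 16.5-fold (12.5 to 21.8) and 18.4-fold (13.8 to 24.5). Cxcl10, an interferon-induced ligand that draws T cells, ran the other way against saline, at -0.38, 3.83, 3.24 and 2.05, a 5.39-fold (4.09 to 7.12) excess over baseline. Ccl12, another CCR2 ligand, stood at -1.50, 1.05, 0.88 and 0.58, 4.25-fold (3.22 to 5.62) higher than baseline.

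These 4 were part of 6 genes at least 2-fold higher among 28 measured cytokines and chemokines, against 1.31% of measured genes. None of the 28 was 2-fold lower, against 2.01% of measured genes. The other 2 of those 6, Cxcl1 and Ccl4, named after their values were seen, differed by 2.01 and 1.37. The list's median was 0.26, and -0.12 with spike-in scaling. Beyond spot error 10 genes were higher and 6 lower, against 7.72% and 8.94% of measured genes. Il6 was well above background with dexamethasone at 24 h but not at baseline, at least 1.77-fold higher. In the list of NF-kappaB and Toll-like receptor genes the median was 0.00, or -0.39 with spike-in scaling. Socs3, a feedback inhibitor of cytokine receptor signalling, was 2.39-fold (1.81 to 3.16) higher there, and Bcl3, a nuclear partner of NF-kappaB, differed by 0.97 on the log2 scale. The macrophage and monocyte list, whose cells are the usual target of these chemokines, had a median of -0.27, with 16 of 19 genes below baseline.

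**Figure D2:**
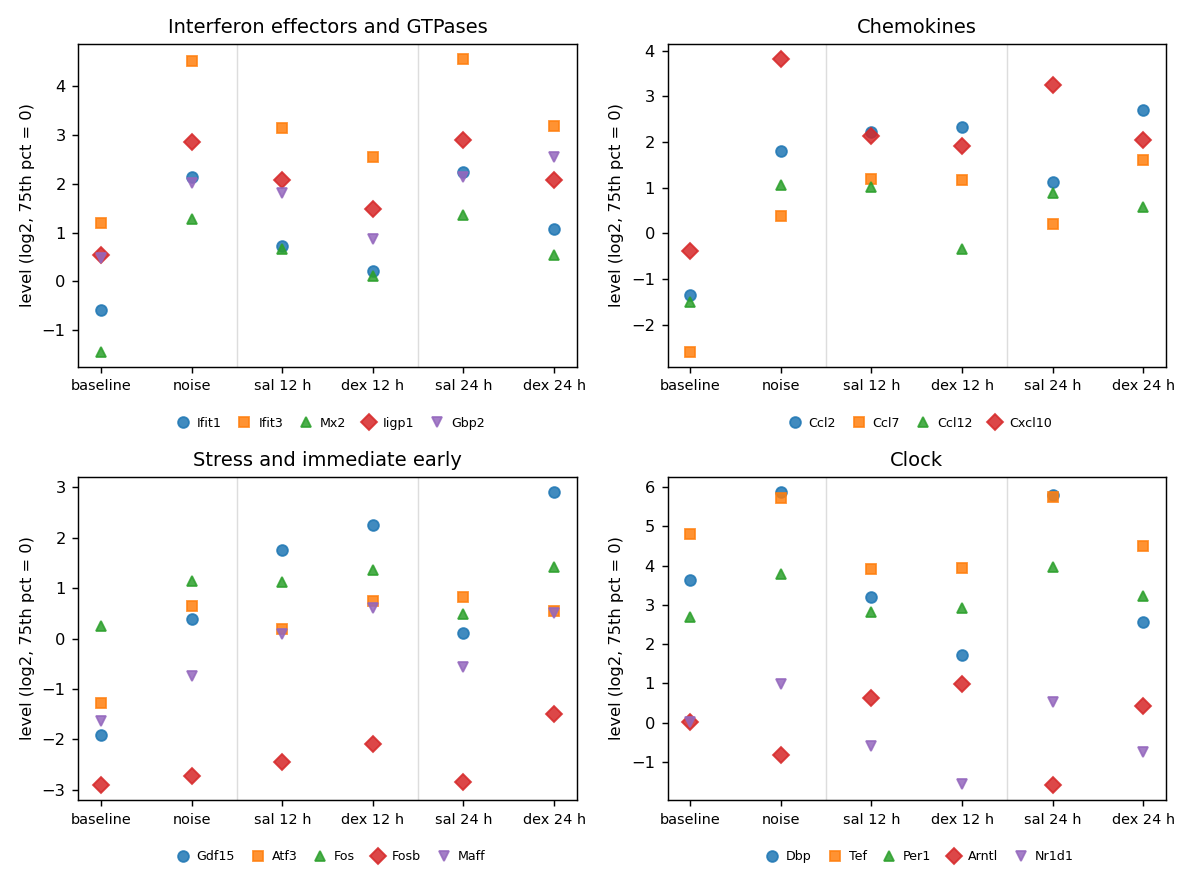
Level (log2 signal, 75th percentile at 0, y axis) of interferon, chemokine, stress and clock genes on all 6 arrays, 1 point per array; the 2 arrays at 12 h lay on another slide. At 24 h Ifit1, Ifit3, Mx2 and Iigp1 lie lower with dexamethasone than with saline but above baseline, Ccl2, Ccl7 and Gdf15 lie higher than with saline, and Dbp, Tef and Per1 lie closer to baseline than with saline.

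Gdf15, a stress-induced hormone of the TGF-beta superfamily that acts on the brainstem, had the largest excess of the measured genes. Its level was -1.91 at baseline, 0.39 with noise only, 0.12 with saline at 24 h and 2.91 with dexamethasone at 24 h, the highest of these 4 arrays. The probe lies at chr8:73153293-73153352 in mm9, and the excess was 28.2-fold (21.3 to 37.3). Tnfrsf12a, the receptor of the cytokine TWEAK induced in injured tissue, had levels of 1.33, 1.70, 1.79 and 3.28 and was 3.87-fold (2.93 to 5.11) higher than baseline. Rbp7, a retinol-binding protein of fat and endothelium, stood at 1.05, 2.07, 2.43 and 3.02, and was 3.93-fold (2.98 to 5.18) higher.

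Of 25 measured immediate early genes, which cells transcribe within minutes of a stimulus, 19 lay above baseline. At least 2-fold higher were 5, against 1.31% of measured genes. The median difference was 0.33, or -0.06 with spike-in scaling. Maff, a small Maf factor, had levels of -1.63 at baseline, -0.56 with saline at 24 h and 0.50 with dexamethasone, a 4.38-fold (3.31 to 5.80) excess. Atf3, a stress and axon injury factor, stood at -1.27, 0.83 and 0.55, 3.53-fold (2.67 to 4.66) higher and a little below saline. The AP-1 subunit gene Fos stood at 0.25, 0.48 and 1.43, and Fosb at -2.91, -2.84 and -1.49. Saline at 24 h was thus close to baseline for the Fos genes, and dexamethasone was 2.26-fold (1.71 to 2.99) higher for Fos and 2.67-fold (1.98 to 3.59) for Fosb. The fifth gene was Ier3, named after its value was seen, at 2.02-fold (1.53 to 2.66). Egr1 and Junb were 1.32-fold and 1.49-fold higher, and the probes of Junb ranged from -0.30 to 0.58.

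Chaperone genes were slightly above baseline throughout. All 19 measured heat shock genes had a positive difference, with a median of 0.31, beside -0.01 with saline at 24 h, and with spike-in scaling the median turned to -0.08. Of the 19 differences 7 were beyond spot error, against 7.72% of measured genes. Hspa1b and Hspa1a, the inducible Hsp70 chaperones whose near-identical RNAs may share signal, differed by 1.30 and 0.80. In the list of endoplasmic reticulum and integrated stress genes 19 of 21 lay above baseline with a median of 0.23, or -0.16 with spike-in scaling. Hyou1, a chaperone of the endoplasmic reticulum, was the only member besides Gdf15 at least 2-fold higher, against 1.31% of measured genes. It was 2.23-fold (1.67 to 2.99) higher, and its 4 probes ranged from 0.39 to 1.16. The stress-induced factor Ddit3 differed by 0.53. Apoptosis genes leaned the other way, with 16 of 18 below baseline and a median of -0.18. Only 3 of the 18 were lower beyond spot error, against 8.94% of measured genes. Bbc3 and Bax, which promote cell death through mitochondria, differed by -0.82 and -0.62.

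Hmox1, the enzyme that breaks down haem, had levels of 2.61 at baseline, -1.30 with noise only, -1.13 with saline at 24 h and 1.03 with dexamethasone at 24 h. The dexamethasone array was 2.99-fold (2.27 to 3.94) below baseline, while saline at 24 h was 13.4-fold below it. Hmox1 was the only gene of the antioxidant list, of 20, that was 2-fold away, against 3.32% of measured genes.

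Known targets of the glucocorticoid receptor differed from baseline by less than 2-fold with 1 exception, Lcn2. None of 24 was at least 2-fold higher and 1 was lower, against 1.31% and 2.01% of measured genes, so both counts are near the general share. Above baseline lay 20, 10 of them beyond spot error, against 7.72% of measured genes. The median was 0.25, beside 0.23 with saline at 24 h, or -0.14 with spike-in scaling. Fkbp5, a co-chaperone that dampens the receptor, had levels of 1.82 at baseline, 1.90 with saline and 1.82 with dexamethasone. Zbtb16, a zinc finger repressor, stood at 1.92, 2.10 and 2.00, and Tsc22d3, an anti-inflammatory leucine zipper protein, at 4.27, 4.80 and 4.49. The dexamethasone levels of these 3 genes were 1.00-fold, 1.06-fold and 1.17-fold those at baseline, all within spot error. Those of the receptor gene Nr3c1 were 3.29 at baseline and 3.25 with dexamethasone, also within spot error.

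The largest positive differences in that list were below 2-fold. Cdkn1a, a cell cycle inhibitor, was 1.73-fold (1.31 to 2.29) higher than baseline, Pdk4, a kinase that turns muscle from glucose to fat, 1.64-fold (1.24 to 2.16), and Sgk1, a kinase that raises sodium transport, 1.59-fold (1.21 to 2.10). With saline at 24 h Cdkn1a and Pdk4 differed from baseline by -0.11 and 0.01, and Sgk1 by 0.36. Lcn2, an iron-sequestering protein of neutrophil granules and the acute phase, stood at 5.35 on the baseline array and 4.14 with dexamethasone, 2.31-fold (1.75 to 3.05) lower.

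Clock genes differed from baseline in both directions with dexamethasone at 24 h. The 10 repressors of the clock ran from -0.75 to 0.54, with 5 above and 5 below baseline. Their median was 0.02, or -0.37 with spike-in scaling, where saline gave 1.00. Beyond spot error 3 were higher and 2 lower, against 7.72% and 8.94% of measured genes. None was 2-fold away, against 3.32% of measured genes, so none is near the general share for a list of 10. In all 10 the dexamethasone level lay below the saline level. Dbp, a clock-driven transcription factor with a large daily swing, had levels of 3.63 at baseline, 5.88 with noise only, 5.79 with saline at 24 h and 2.57 with dexamethasone at 24 h. Dexamethasone was the lowest of the 4, 2.09-fold (1.59 to 2.76) below baseline, where saline was 4.45-fold above it. Tef, of the same family, stood at 4.80, 5.71, 5.76 and 4.50.

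Arntl, the activator that is transcribed in antiphase to Dbp, ran the opposite way, at 0.01, -0.84, -1.59 and 0.41, and its dexamethasone level was within spot error of baseline. Nfil3, the repressor that opposes Dbp at shared sites, was 1.66-fold (1.26 to 2.19) higher than baseline. Per1 was 1.46-fold (1.11 to 1.92) higher, and Nr1d1, which encodes REV-ERB alpha, differed by -0.75. The labels give no clock hour for any group, so time of day was not tested.

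Genes of dividing cells were lower throughout. All 30 measured cell cycle genes lay below baseline, 13 of them at least 2-fold, against 2.01% of measured genes, with a median of -0.94. Their differences ran from -1.40 to -0.56 and all 30 were lower beyond spot error, against 8.94% of measured genes. Saline at 24 h gave a median of -0.02 against the same array, and noise only one of -0.81. Mki67, the proliferation antigen, had levels of 4.05 at baseline, 3.03 with noise only, 3.98 with saline at 24 h and 2.75 with dexamethasone at 24 h. Cdk1, the kinase that starts mitosis, stood at -0.78, -2.20, -1.20 and -2.04. Baseline and saline were thus the high arrays, and dexamethasone and noise only the low ones. Against baseline the dexamethasone level was 2.46-fold (1.87 to 3.25) lower for Mki67, 2.40-fold (1.80 to 3.20) for Cdk1, 2.64-fold (1.95 to 3.56) for Bub1, a spindle checkpoint kinase, and 2.34-fold (1.77 to 3.09) for Ccnb1, the cyclin partner of Cdk1. In whole tissue fewer cells of a type and less RNA per cell cannot be told apart.

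Promoters of mitotic genes are known for the CHR element, searched as TTTGAA, and the CCAAT box that binds NF-Y, both on both strands. Of 25 list genes with an entry 22 held a CCAAT box and 9 a CHR, 88.5% and 34.6% of 26 entries, against 33.8% and 16.0% of all entries. The promoters of Cdk1 at chr10:69352913-69353162 (-) and Mki67 at chr7:135716380-135716629 (-) are shown, with both elements in capitals, because these genes stand for the group.
Cdk1: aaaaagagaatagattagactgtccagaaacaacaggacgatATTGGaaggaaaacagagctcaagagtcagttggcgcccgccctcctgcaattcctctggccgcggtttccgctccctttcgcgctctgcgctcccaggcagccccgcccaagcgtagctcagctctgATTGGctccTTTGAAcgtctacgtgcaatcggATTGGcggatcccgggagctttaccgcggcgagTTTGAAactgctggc
Mki67: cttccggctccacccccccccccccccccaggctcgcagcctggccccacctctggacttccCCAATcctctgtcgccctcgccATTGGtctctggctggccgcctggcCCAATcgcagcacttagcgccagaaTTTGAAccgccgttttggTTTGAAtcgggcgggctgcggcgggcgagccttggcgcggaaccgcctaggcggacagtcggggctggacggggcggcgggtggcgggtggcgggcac
Each of the 2 held 5 matches, none overlapping another. Here too the shares describe the list, whatever the differences of its genes.

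Marrow and blood lineages lay below baseline with the cell cycle genes. Of 18 neutrophil genes 15 were at least 2-fold lower, against 2.01% of measured genes. The list's median was -1.25, beside -0.68 with saline at 24 h and -1.12 with noise only. Ctsg, a protease of the granules made in promyelocytes, had levels of 3.80 at baseline, 2.88 with noise only, 3.26 with saline and 2.23 with dexamethasone, the lowest of the 4. It was 2.96-fold (2.24 to 3.91) lower than baseline, Prtn3, a second such protease, 3.07-fold (2.32 to 4.05), Ms4a3, a marker of their precursors, 2.95-fold (2.24 to 3.90), and Cd177, a surface protein of mature neutrophils, 3.11-fold (2.34 to 4.13). The summed signal of the list, in units of each array's 75th percentile, was 1083 at baseline, 600.1 with noise only, 795 with saline and 627 with dexamethasone, and all 18 genes were well above background on each of these arrays.

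Eosinophil genes had a median of -1.48 with 7 of 9 at least 2-fold lower, against 2.01% of measured genes. Prg2, the major basic protein, had levels of 3.44 at baseline, 1.49 with noise only, 3.18 with saline and 1.70 with dexamethasone, a 3.35-fold (2.54 to 4.42) deficit. Epx, the eosinophil peroxidase, stood at 0.23, -1.88, 0.14 and -1.33. Noise only was the lowest of the 4 arrays for both, with dexamethasone next, and saline was near baseline. The Ear genes of this list are near-identical copies that may share signal.

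Erythroid genes had a median of -0.97, where saline at 24 h gave 0.04. Of 19 genes 17 lay below baseline and 9 were at least 2-fold lower, against 2.01% of measured genes. Ahsp, the chaperone of alpha globin, had levels of 5.02 at baseline, 5.07 with saline and 3.70 with dexamethasone, 2.51-fold (1.90 to 3.31) lower. Epb42, a protein of the red cell membrane, was 2.71-fold (2.03 to 3.63) lower. Lymphocyte lists were lower by less, with medians of -0.75 for T and NK cells and -0.59 for B cells. Against 2.01% of measured genes, 3 of their 16 and 2 of their 18 genes were at least 2-fold lower. These were Nkg7, Cd3d and Cd3g in the former, and Fcrla and Cd79b in the latter. Cd79b, part of the B cell receptor, stood at 2.88 at baseline, 2.44 with saline and 1.76 with dexamethasone.

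Bone genes lay closer to baseline. Osteoblast and osteocyte genes had a median of -0.08 and a summed signal of 580 at baseline and 595 with dexamethasone. In noise only the same list had a median of -0.67. Osteoclast genes had a median of -0.31 with 9 of 13 below baseline, and MHC class II genes one of -0.29 with 9 of 10 below. H2-Ob, a chaperone of class II loading in B cells, was 2.18-fold (1.63 to 2.90) lower. It was the 1 class II gene of 10 at least 2-fold lower, against 2.01% of measured genes. How much bone and marrow each dissection held was not measured, and its part in the cell cycle, neutrophil, eosinophil and erythroid values was not tested.

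**Figure D3:**
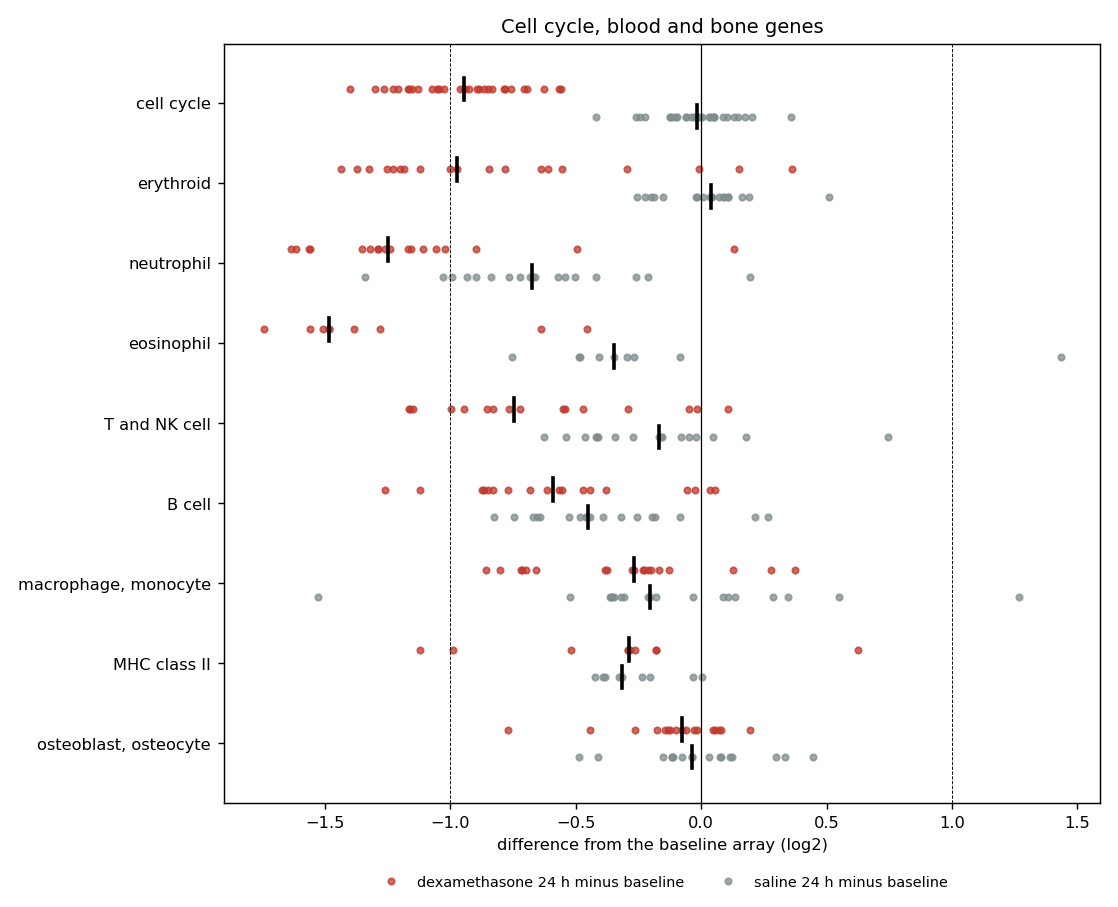
Difference from the baseline array (log2, x axis) of each measured gene in 9 lists of cell cycle, blood and bone genes, with dexamethasone at 24 h in red and saline at 24 h in grey; 1 point per gene, black bars mark list medians and dashed lines 2-fold. All 30 cell cycle genes and 17 of 19 erythroid genes lie left of 0 with dexamethasone, with medians of -0.94 and -0.97, and around 0 with saline.

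Fat and lipid genes lay above baseline with dexamethasone and mostly below it with saline. Of 21 adipocyte genes 20 lay above baseline with a median of 0.64, beside -0.39 with saline at 24 h, and with spike-in scaling the median would be 0.25. Fasn, the fatty acid synthase, had levels of 5.78 at baseline, 6.78 with noise only, 5.72 with saline and 6.90 with dexamethasone, and was 2.18-fold (1.65 to 2.87) higher than baseline. Ucp1, the uncoupling protein of brown fat, stood at 3.33, 2.59, 2.06 and 4.40, and was 2.10-fold (1.59 to 2.78) higher. Dgat2, which completes triglyceride synthesis, and Plin1, the coat of the lipid droplet, differed by 0.97 and 0.95 on the log2 scale. The summed signal of the list was 221 at baseline, 285 with noise only, 171 with saline and 388 with dexamethasone. Fat around the cochlea cannot be told from fat genes within it, and its amount was not tested.

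Sterol synthesis genes had a median of 0.32, with 17 of 18 above baseline, where saline gave -0.29 and spike-in scaling would give -0.07. None was at 2-fold, against 3.32% of measured genes. Lss and Cyp51, enzymes of the steps from squalene to cholesterol, differed by 0.55 and 0.50. Only these 2 of the 18 were higher beyond spot error, against 7.72% of measured genes. The sterol regulatory element, searched as TCACNCCAC, was found before the start of 1 of the 11 list genes with an entry, and in 1.05% of all entries. Nuclear genes of oxidative phosphorylation, active in nearly every cell, were close to baseline, with differences from -0.04 to 0.25 and a median of 0.07, or -0.32 with spike-in scaling.

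Measured genes in the lists of hair cells, supporting cells, lateral wall and spiral ganglion all differed by less than 2-fold. Over all measured genes only 3.32% were 2-fold away, so lists of this size would hold few such genes. Of 22 measured hair cell genes none was 2-fold away, 16 lay above baseline, and the median was 0.21, beside 0.53 with saline, turning to -0.18 with spike-in scaling. The differences of 9 genes were positive beyond spot error, against 7.72% of measured genes. The largest was Loxhd1, a stereocilia protein, at -2.68 on the baseline array and -1.77 with dexamethasone, but its 3 probes ranged from 0.20 to 0.90. Ush1c, the Usher protein harmonin, and Myo15, the myosin of stereocilia tips, differed by 0.69 and 0.68. Slc26a5, Tmc2 and Atoh1 were not well above background on either array. Tectorial and supporting cell genes had a median of 0.08, or -0.31 with spike-in scaling.

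The lateral wall leaned below baseline. In the spiral ligament list 7 of 8 genes lay below it with a median of -0.40, 4 of them beyond spot error against 8.94% of measured genes, where saline at 24 h gave 0.30. Otos, a secreted protein of its fibrocytes, had levels of 7.59 at baseline, 6.94 with noise only, 7.58 with saline and 6.84 with dexamethasone, 1.68-fold (1.27 to 2.22) lower. Coch, the cochlin of the extracellular matrix, stood at 5.86, 6.01, 6.03 and 5.44, and was 1.34-fold (1.02 to 1.77) lower. Dexamethasone at 24 h was the lowest of the 4 arrays for both.

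In the stria vascularis 14 of 18 genes lay below baseline with a median of -0.14, beside 0.22 with saline. Dct, a melanin enzyme of its intermediate cells, was 1.88-fold (1.42 to 2.48) lower, at 5.47 and 4.56. The pigment genes Pmel and Tyrp1 differed by 0.83 and 0.66, so pigment genes differed in both directions. In a separate list of 18 measured fluid transport genes, 2 were at least 2-fold lower, against 2.01% of measured genes. Those 2 were the water channels Aqp3, at 2.79-fold (2.10 to 3.70), and Aqp9, at 2.11-fold (1.59 to 2.81). The 2 probes of Aqp9 disagreed, at -1.08 and 0.25. Aqp3 had levels of -0.17 at baseline, -1.95 with noise only, -0.97 with saline and -1.65 with dexamethasone. The epidermal genes Krtdap and Lor, given below, ranked these arrays in the same order. Which cells the RNA of Aqp3 and Aqp9 came from was not tested.

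Neural genes were close to baseline. Spiral ganglion genes had a median of 0.18 with 17 of 23 above baseline, and Schwann cell genes one of 0.29 with 16 of 20 above, turning to -0.21 and -0.10 with spike-in scaling. Prph, the peripherin of small-calibre neurons, had levels of 3.43 at baseline, 1.33 with saline and 3.84 with dexamethasone. Beyond spot error 6 of the 20 Schwann cell genes were higher and 1 was lower, against 7.72% and 8.94% of measured genes. The 1 lower was S100b, a calcium-binding protein of glia and other cells, at 7.70 with baseline and 6.72 with dexamethasone, a difference of -0.98.

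**Figure D4:**
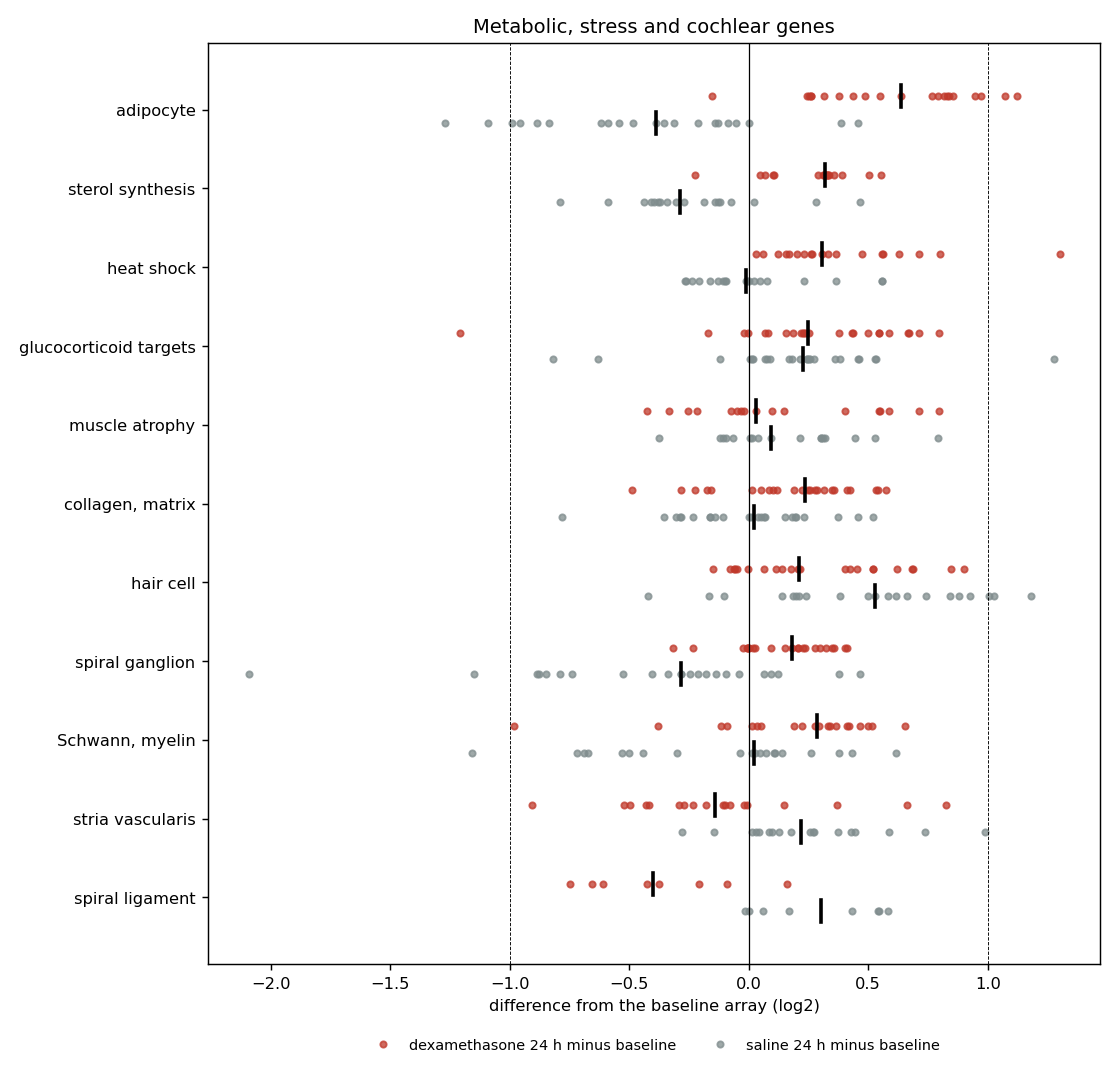
Difference from the baseline array (log2, x axis) of each measured gene in 11 lists of metabolic, stress and cochlear genes, with dexamethasone at 24 h in red and saline at 24 h in grey; 1 point per gene, black bars mark list medians and dashed lines 2-fold. Adipocyte genes have a median of 0.64 with dexamethasone and -0.39 with saline, and most genes of the cochlear lists lie within 2-fold, as do most measured genes.

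Several of the largest single differences were of genes known from tissues that lie beside the cochlea. Pomc, the precursor of corticotropin in the pituitary, had levels of 1.12 at baseline, -1.07 with noise only, -1.38 with saline and 5.55 with dexamethasone, 21.6-fold (16.3 to 28.5) above baseline. Prl, Gh and Cga, which encode prolactin, growth hormone and the alpha chain of glycoprotein hormones, were 3.62-fold, 3.80-fold and 3.23-fold higher. Of 11 pituitary genes 5 were measured, 4 of them at least 2-fold higher, against 1.31% of measured genes. Another 5 were not well above background on either array, among them the pituitary factors Pou1f1 and Tbx19. The summed signal of the list was 18.7 at baseline, 3.45 with noise only, 1.68 with saline and 106 with dexamethasone.

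Epidermal genes differed in the opposite direction. Of 12 measured, 8 were at least 2-fold lower, against 2.01% of measured genes. The 12 genes had a median of -1.81, and one of -1.30 with saline. Krtdap, a secreted protein of differentiating keratinocytes, had levels of 2.75 at baseline, -1.98 with noise only, 0.78 with saline and -1.82 with dexamethasone, 23.6-fold (17.8 to 31.3) lower than baseline. Lor, the main protein of the cornified envelope, stood at 2.87, -2.19, 1.27 and -1.14, 16.2-fold (12.2 to 21.4) lower. Baseline was the highest of these 4 arrays for both. The keratins Krt17, Krt5, Krt14 and Krt10 were 10.3-fold, 6.32-fold, 6.20-fold and 3.77-fold lower, and Dmkn, a secreted epidermal protein, 5.03-fold lower. Clone, accession, predicted and unnamed features were left out of the named bounds. Among the other genes well above background at baseline but not with dexamethasone, the 5 largest bounds were also of skin genes, Lce1a1 at least 39.6-fold, Flg2 at least 32.7-fold, Lce1d at least 28.9-fold, Lce1b at least 22.3-fold and Spink5 at least 18.1-fold lower, and 2 features left out had a larger bound than Spink5. The Lce1 genes are close copies that may share signal. The summed signal of the epidermal list was 38.9 at baseline, 9.12 with noise only, 16.8 with saline and 10.5 with dexamethasone.

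Cerebellar genes had a median of -0.45, with 3 of 16 at least 2-fold lower, against 2.01% of measured genes. The list was high in noise only, with a median of 2.86. Gabra6, a receptor subunit of granule cells, had levels of -1.05 at baseline, 2.19 with noise only, -0.61 with saline and -2.12 with dexamethasone. Ppp1r17, a gene of Purkinje cells, differed by -1.27. Mucosal gland genes had a median of -0.75. Against 2.01% of measured genes, 3 of these 13 were at least 2-fold lower, Bpifb1, Tff2 and Dmbt1. Sympathetic neuron, sensory ganglion and choroid plexus genes had medians of 0.29, 0.45 and 0.06, whereas saline at 24 h gave -2.14, -1.52 and -1.12. All 14 measured sensory ganglion genes lay above baseline, 9 of them beyond spot error, against 7.72% of measured genes. The sympathetic value with saline rests on the 7 of 12 genes well above background there, and the sensory ganglion value on 13. With spike-in scaling these 3 medians with dexamethasone would be -0.10, 0.06 and -0.32. For genes of skeletal muscle the median was 0.25, or -0.14 with spike-in scaling, beside 0.92 with saline. The part of tissue beside the cochlea in any of these values was not tested. Leaving out all genes of the other-cell and neighbour lists left 23109 genes, 300 at least 2-fold higher (1.30%) and 421 lower (1.82%). That takes out listed genes only, so it cannot show how much other tissue adds to the rest.

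**Figure D5:**
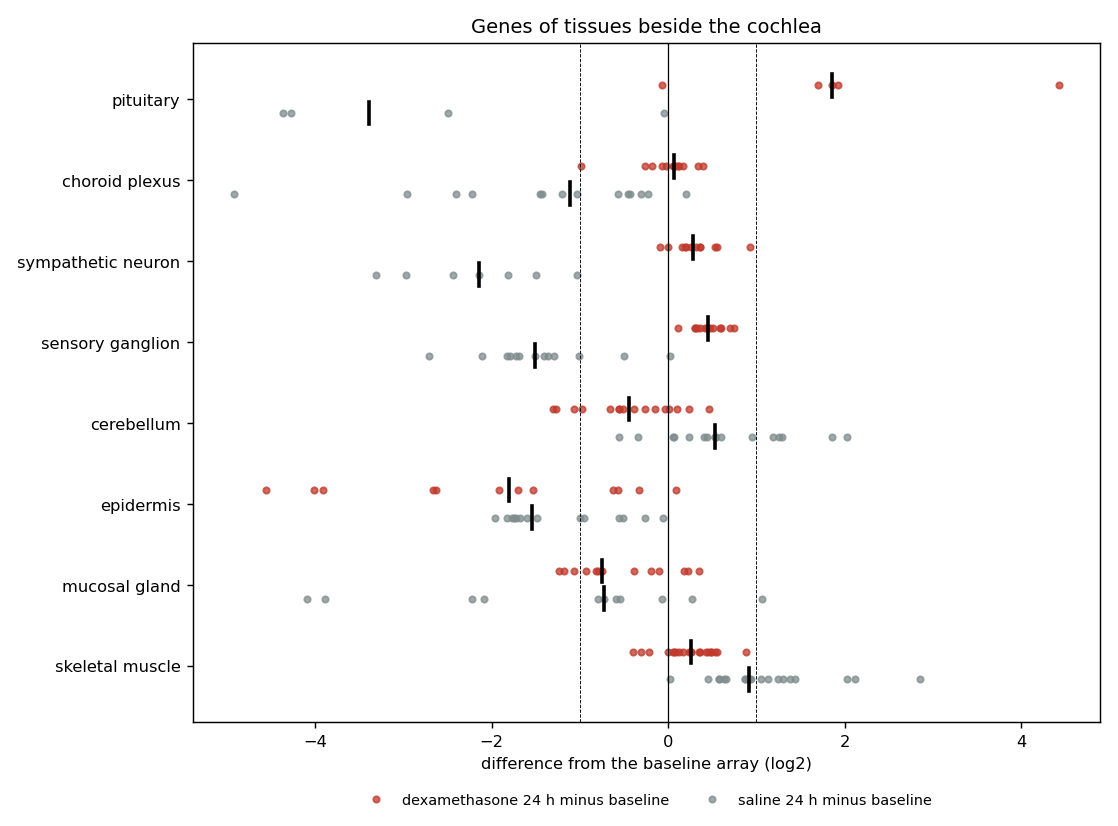
Difference from the baseline array (log2, x axis) of each measured gene in 8 lists of tissues beside the cochlea, with dexamethasone at 24 h in red and saline at 24 h in grey; 1 point per gene, black bars mark list medians and dashed lines 2-fold. With dexamethasone 4 of 5 pituitary genes lie to the right of 0 and 11 of 12 epidermal genes to the left, and with saline the medians of both lists lie to the left.

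Of the remaining genes with the largest differences, Rs5-8s1, which encodes 5.8S ribosomal RNA, was 4.03-fold (3.05 to 5.32) higher than baseline, with levels of 3.70 at baseline, 4.11 with noise only, 4.09 with saline and 5.71 with dexamethasone. Trappc3, a subunit of a vesicle tethering complex, was 3.55-fold (2.69 to 4.69) lower, and Ly6g6c, a member of the Ly6 family, 3.51-fold (2.66 to 4.64). The 2 probes of Ly6g6c lay at -1.81 and -0.92. Among genes well above background with dexamethasone but not at baseline, the 5 largest bounds outside clone, accession, predicted and unnamed features belonged to Olfr1360, at least 15.7-fold higher, Platr10, at least 14.4-fold, Dnajb8, at least 13.9-fold, Dsg1c, at least 13.4-fold, and Sowahd, at least 12.5-fold. Of the features left out 17 had a larger bound than Sowahd, up to 47.4-fold for the predicted gene Gm9926. Dnajb8 and Dsg1c were also well above background with noise only, and Olfr1360, Platr10 and Sowahd were not.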

How the data were processed

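Cy3-labelled cRNA of total cochlear RNA was hybridised to 1-colour Agilent arrays and scanned by the authors with Agilent Feature Extraction 10.10.1.1, per the submitters' processing notes. The deposited scanner tables give a background-subtracted intensity per spot, a spot error and a flag for spots well above background. The deposited series matrix holds log2 values with no stated scale, with medians of -2.95 at baseline and -2.90 with dexamethasone at 24 h. At 100% of probes they equalled the log2 intensity minus 1 constant per array to within 0.01, and that constant lay -0.0053 to -0.0034 from the 75th percentile; genes were not centred.

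Control spots and outlier flags were left out, spots of a probe were averaged, and log2 intensity minus each array's 75th percentile over the non-control probes was taken. A gene is represented by its probe of highest mean level over the 6 arrays, and 33887 probes were named through a RefSeq accession and 22702 by the file, with 1715 names changed. A gene not well above background on 1 array has a lower bound, against the higher of its own level and the lowest level well above background on that array. No array was saturated at any spot. Of the 777 genes past 2-fold, 126 had another measured probe, and in 87.3% of these all pointed the same way.

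The text names the 10 highest and 10 lowest of the brighter genes (from the median signal up), the 4 largest differences of each list, the 5 largest bounds each way (without clone, accession, predicted and unnamed features, as for the highest and lowest) and a fixed set of glucocorticoid, clock, cytokine and immediate early genes; any other gene is said to be named after its value was seen, and a few genes under these rules are not reported here. The 52 lists and these rules were chosen with earlier results of these data known. Python 3.11.15, pandas 2.3.3, numpy 2.4.6 and, for the alternatives, R 4.3.3 with limma 3.58.1 were used. The counting was tested on simulated data. Comparisons with the baseline array share that array, so no overlap or correlation between them was taken.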

Additional observations from a re-analysis of the deposited data

How the results depend on the processing

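No paired analysis was possible because each group has 1 array, and no array could be left out in turn. The counts of 306 higher, 471 lower and 777 genes in all stayed within 1.5 times with the series matrix values, the mean over a gene's probes, quantile normalization, and a 75th percentile taken only over probes that every array detected. The same held without the genes of the other-cell and neighbour lists, which takes out listed genes only and is no test of other tissue. The counts were 141, 226 and 367 with normexp background correction and quantile normalization, 163, 1337 and 1500 with spike-in scaling, 1523, 1408 and 2931 with no filter on dim probes, and 43, 139 and 182 among the 11699 genes at or above the median signal. A threshold of 1.5-fold gave 1040, 1438 and 2478, and one of 3-fold gave 128, 74 and 202. Why normexp lowers the counts was not tested. Of the 73 named genes at least 2-fold apart, 0 changed sign under these scalings and filters, and 65 were still 2-fold apart with spike-in scaling and 61 with normexp. Spike-in scaling turned the sign of 22 of 52 list medians, and at most 1 turned with each other scaling or filter; the 5 medians of at least 2-fold kept their sign under all. Dim spots limit both counts, and 1 array per group limits every value.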
